A study of Danio rerio with 6 samples.

Results

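The genes described here make cholesterol, take it up from lipoproteins or switch both on, in the testis of adult zebrafish (Danio rerio). They were chosen by name, and those reported here are hmgcs1, sqlea, lss, fdft1, dhcr7, tm7sf2, srebf2 and ldlra. These 8 names were found among the 32520 Ensembl genes of the counts table. The reference table of symbols gives 2 genes the name SQLE, without saying which is the a paralog (the duplicated copy that the list names). Both copies were therefore kept, and the 8 names stand for 9 genes. The other 7 names matched 1 gene each, printed below as that table spells them.

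Testes of 6 wild-type adult fish were sequenced after poly(A) enrichment, 1 animal per library. In the control group of 3 fish nothing was added to the water. The exposed group of 3 fish received polystyrene nanoplastics, very small plastic particles, in the water every 24 h for 96 h. Each library carries its replicate number and then its animal number: control 1-2, 2-2 and 3-1, and exposed 2-2, 3-1 and 3-3. What the first number stands for is not stated, and exposed 3-1 and 3-3, which share it, were treated as independent. The sources used here do not give particle size, dose, strain or any age beyond adult. Whole testes were sequenced, so fewer cells of a type and less RNA per cell cannot be told apart in any value below.

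Cholesterol is built from acetyl-CoA through mevalonate, squalene and lanosterol. Squalene epoxidase (SQLE) is one of its control points. When membranes run low in sterol, the transcription factor SREBP2, the product of srebf2, is cut free and switches on the enzymes of the pathway and the LDL receptor. In the testis, Leydig cells spend cholesterol on androgens: STAR carries it into mitochondria, where CYP11A1 cuts its side chain. In mammals, germ cells also express late enzymes of the pathway, and some of their sterol intermediates act on meiosis in vitro.

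Totals ran from 76205591 to 86765952 counts in control libraries and from 96029888 to 108273937 in exposed ones, so every exposed library was deeper. At these depths 3 counts equal 0.0277 to 0.0394 CPM (counts scaled to a common library total, here before TMM), and such floors cover counting error only. Markers of germ cells, Sertoli cells and Leydig cells were present in every group, with 0 of these markers absent from all 3 controls. The marker sums of other tissues differed between libraries. Hepatocyte markers summed to 18809 CPM in control 3-1 against 199 and 944 in the other controls, and to 6452 CPM in exposed 3-1 against 825 and 1661. Epidermal markers summed to 14056 and 11276 CPM in exposed 2-2 and 3-1, against 1535 in exposed 3-3 and 885 to 2584 in controls.

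**Figure D1:**
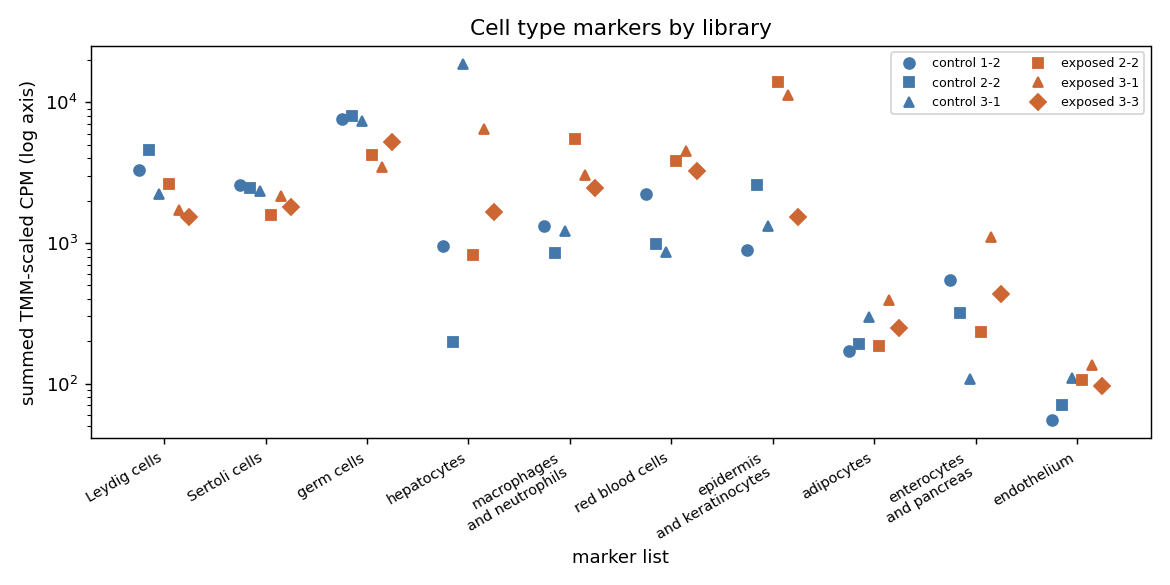
Summed expression of 10 lists of cell type markers in each library, as TMM-scaled CPM on a log axis; blue symbols are control and orange symbols exposed libraries. Germ cell sums of the exposed libraries (3495 to 5253) lie below those of the controls (7373 to 7993). Sertoli cell sums also lie below (1584 to 2171 against 2358 to 2590.1), though 6 of 11 Sertoli markers had a log2 fold change above 0. Macrophage and neutrophil sums lie above, as do red blood cell sums (3229 to 4530.3 against 860.4 to 2225). Hepatocyte and epidermal sums differ most between single libraries.

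The comparison asked whether transcripts for cholesterol supply differed after exposure. No gene of the group passed the test, and in each of the 9 the exposed and control libraries overlapped. The transcription factor gene srebf2 and both copies of SQLE had higher mean levels in exposed testes, carried by exposed 2-2 and 3-1. The sterol reductase gene TM7SF2 and the lanosterol synthase gene LSS had lower means, with ratios of exposed to control means of 0.616 and 0.718. HMGCS1, FDFT1, DHCR7 and ldlra had ratios of exposed to control means between 0.97 and 1.06.

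Over all 26108 genes tested with edgeR's quasi-likelihood test, 0 passed a Benjamini-Hochberg adjusted p of 0.05 (0%), so 0 of 9 members is what the whole table gave. At an unadjusted p under 0.05, 2 of 9 members, srebf2 and SQLE ENSDARG00000063319, were higher (22.2%, against 9.68% of all genes) and 0 were lower (against 6.79%). The count of 2 was 0 without control 1-2, exposed 2-2 or exposed 3-1 and 1 without control 3-1, and 1 member, TM7SF2, was lower without control 2-2 or exposed 3-3. DESeq2 called 1 member higher, where it called 5.35% of all genes higher and 1.34% lower. For comparison, limma voom called 0 members and edgeR's bias-adjusted method 0, against 0.268% of all genes. Groups did not overlap for 0 of 9 members, against 23.7% of all genes. The median log2 fold change, exposed over control, was 0.03 for the members and 0.04 for all genes. Below, levels are CPM scaled by TMM (a correction for library composition), given as mean ± SD with n = 3 per group. Fold changes are log2, exposed over control, ± SE. Levels are not divided by transcript length, so they are compared between libraries and not between genes.

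**Figure D2:**
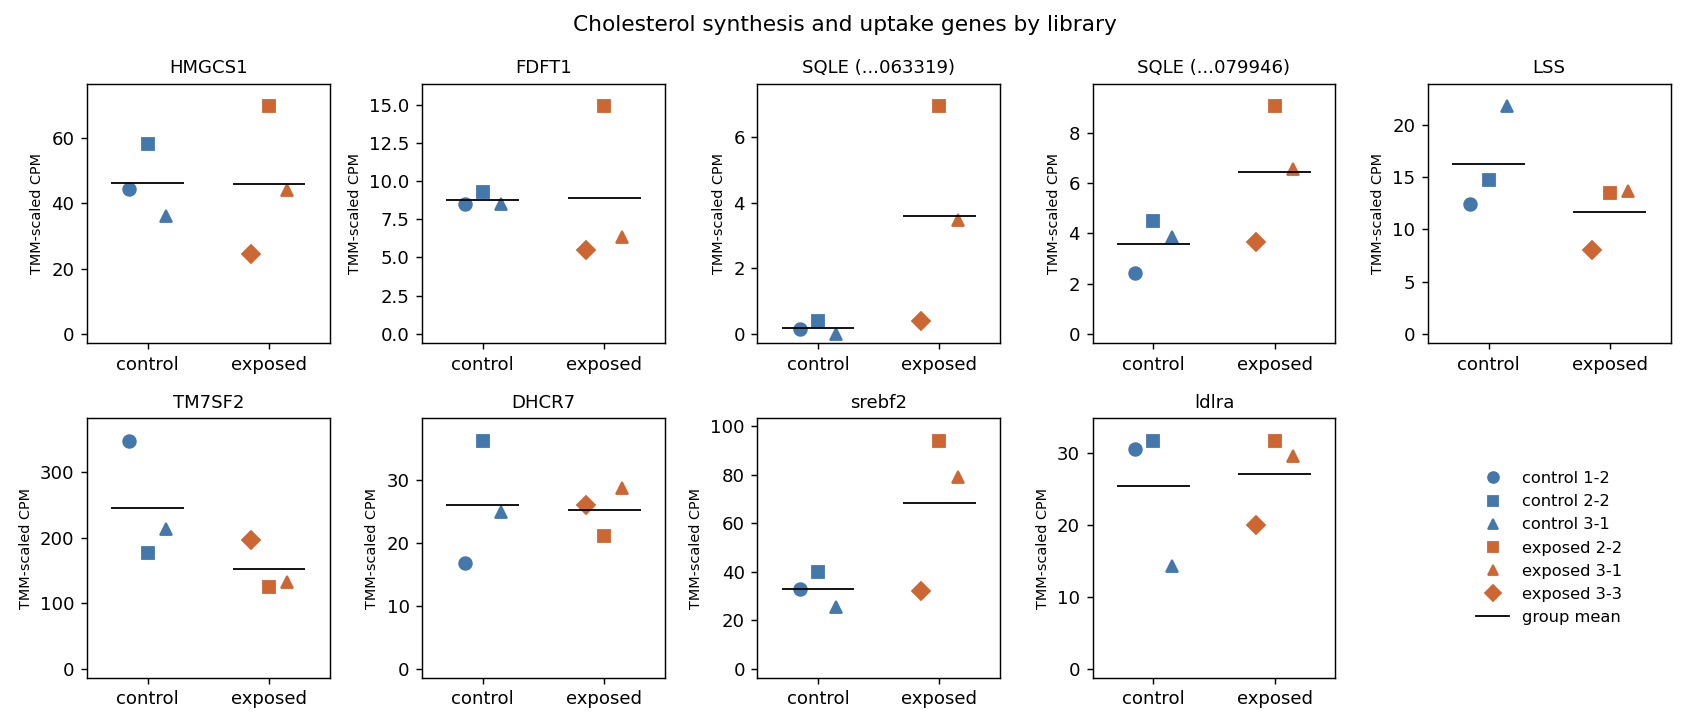
TMM-scaled CPM of the 9 genes in each of the 6 libraries, on linear axes; black lines are group means, and the digits after SQLE are the end of the Ensembl identifier. The groups overlap in all 9 panels. In srebf2 exposed 2-2 and 3-1 (93.8 and 79.2) lie above the controls, and exposed 3-3 (31.9) lies among them.

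The regulator comes first. The gene srebf2 (ENSDARG00000063438) had 33.0, 39.9 and 25.3 CPM in control 1-2, 2-2 and 3-1, and 93.8, 79.2 and 31.9 CPM in exposed 2-2, 3-1 and 3-3. Exposed 2-2 and 3-1 stood above every control, and exposed 3-3 lay between control 3-1 and control 1-2. The means were 32.7 ± 7.27 CPM in the control fish and 68.3 ± 32.4 CPM in exposed testes, a ratio of 2.09. Its log2 fold change was 1.06 ± 0.39 (edgeR unadjusted p = 0.0274, adjusted p = 0.247). Without exposed 3-3 it was 1.40 (edgeR adjusted p = 0.0584), and without exposed 2-2 it was 0.76 (edgeR adjusted p = 0.525). Its paralog SREBF1, which drives fatty acid synthesis and was picked for this comparison after its values were seen, had a log2 fold change of 0.13 ± 0.28, with a 95% interval from -0.51 to 0.77. The ratio of srebf2 to SREBF1 was 1.18 to 1.79 in controls and 2.92, 3.22 and 1.63 in exposed 2-2, 3-1 and 3-3.

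At the entry to the pathway, HMGCS1 (ENSDARG00000103025) makes HMG-CoA. It had 44.5, 58.2 and 36.2 CPM in control 1-2, 2-2 and 3-1 and 69.8, 44.1 and 24.5 CPM in exposed 2-2, 3-1 and 3-3. The exposed libraries held both the highest and the lowest value of the 6. The means were 46.3 ± 11.1 and 46.1 ± 22.7 CPM, and the log2 fold change was -0.01 ± 0.38 (95% interval -0.88 to 0.87). That interval does not show that exposed and control testes were alike.

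FDFT1 (ENSDARG00000101062), squalene synthase, had 8.50, 9.28 and 8.50 CPM in the controls. Its exposed libraries had 14.9, 6.33 and 5.47 CPM, 1 above and 2 below all controls. The means were 8.76 ± 0.45 and 8.91 ± 5.24 CPM (log2 fold change 0.03 ± 0.45, 95% interval -1.02 to 1.07). Without exposed 2-2 the log2 fold change was -0.57.

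The SQLE gene ENSDARG00000063319 had few counts in controls and the largest fold among the members. Squalene epoxidase adds the oxygen that allows the sterol rings to form. This gene had 14, 31 and 0 counts in control 1-2, 2-2 and 3-1 and 709, 327 and 44 counts in exposed 2-2, 3-1 and 3-3. In CPM these were 0.157, 0.395 and 0 in controls and 6.94, 3.48 and 0.384 in exposed testes, and 0 counts in control 3-1 allow up to 0.0389 CPM. Exposed 3-3 was just below control 2-2, while the other exposed libraries were far above all controls. The log2 fold change was 4.28 ± 1.59 (edgeR unadjusted p = 0.0274, adjusted p = 0.247). DESeq2 called this member alone (DESeq2 adjusted p = 0.0267), and it did not pass with edgeR's bias-adjusted method (adjusted p = 0.116) or limma voom (adjusted p = 0.497). The epidermal marker sums given above were also highest in exposed 2-2 and 3-1 and at the level of controls in exposed 3-3. That level of exposed 3-3 holds for the sum and not for each marker. For 6 of the 10 markers every exposed library, exposed 3-3 included, was above every control, against 12.8% of all genes. All 10 had a log2 fold change above 0, and the part of these markers in the SQLE values was not tested.

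The other SQLE gene, ENSDARG00000079946, had 2.41, 4.49 and 3.84 CPM in the control fish and 9.05, 6.57 and 3.67 CPM in exposed 2-2, 3-1 and 3-3. The same exposed libraries were above all controls. Its means were 3.58 ± 1.07 and 6.43 ± 2.69 CPM, and its log2 fold change was 0.85 ± 0.51 (edgeR unadjusted p = 0.136, adjusted p = 0.462). Without exposed 2-2 it was 0.52.

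The next enzyme, lanosterol synthase (LSS, ENSDARG00000061274), closes the sterol rings. It had 12.4, 14.7 and 21.8 CPM in control 1-2, 2-2 and 3-1 and 13.5, 13.7 and 7.99 CPM in exposed 2-2, 3-1 and 3-3. Only exposed 3-3 was below all controls, and the highest value belonged to control 3-1, the library with the largest hepatocyte marker sum. Among exposed libraries that sum was largest in exposed 3-1, whose LSS level was close to that of exposed 2-2. The part of liver transcripts in the LSS values was not tested. The log2 fold change was -0.48 ± 0.36 (edgeR adjusted p = 0.569), and -0.23 without control 3-1.

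TM7SF2 (ENSDARG00000032816) reduces the C14 double bond of sterols after lanosterol, a step that the lamin B receptor LBR also carries out. It had 348, 177 and 214 CPM in control 1-2, 2-2 and 3-1 and 125, 133 and 196 CPM in exposed 2-2, 3-1 and 3-3. Exposed 2-2 and 3-1 were below all controls, and exposed 3-3 was above control 2-2. The means were 246 ± 90.1 and 152 ± 38.9 CPM, with a log2 fold change of -0.70 ± 0.32 (edgeR unadjusted p = 0.0573, adjusted p = 0.321). It was -0.37 without control 1-2 and -0.93 without exposed 3-3. LBR went from 117 ± 5.42 to 82.9 ± 33.5 CPM (log2 fold change -0.50 ± 0.29, edgeR adjusted p = 0.450), with 68.9, 58.6 and 121 CPM in exposed 2-2, 3-1 and 3-3. The ratio of TM7SF2 to LBR was 2.10 ± 0.71 in controls and 1.90 ± 0.333 in exposed testes, a difference smaller than the spread of the controls. Germ cell markers were lower in all exposed libraries than in any control, for 12 of 12 genes (10.9% of all genes had such groups), with sums of 7373 to 7993 CPM in the control fish and of 4247, 3495 and 5253 CPM in exposed 2-2, 3-1 and 3-3. Their part in the values of TM7SF2 and LBR was not tested.

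DHCR7 (ENSDARG00000103226) makes cholesterol from 7-dehydrocholesterol, the last step of the pathway. Control 1-2, 2-2 and 3-1 had 16.8, 36.1 and 24.9 CPM, and exposed 2-2, 3-1 and 3-3 had 21.1, 28.6 and 25.9 CPM. All exposed values lay inside the control range. The log2 fold change was -0.04 ± 0.32, with a 95% interval from -0.77 to 0.68.

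The LDL receptor gene ldlra (ENSDARG00000029476), which takes cholesterol-rich lipoprotein into cells, had 30.5, 31.6 and 14.2 CPM in control 1-2, 2-2 and 3-1. The exposed libraries had 31.6, 29.6 and 19.9 CPM in the order 2-2, 3-1 and 3-3. The lowest value was that of control 3-1, and the groups covered nearly the same range. The log2 fold change was 0.09 ± 0.35 (95% interval -0.72 to 0.90), and -0.22 without control 3-1. Its paralog ldlrb had 9.27, 12.5 and 15.2 CPM in the control fish and 103, 24.6 and 9.31 CPM in exposed 2-2, 3-1 and 3-3 (log2 fold change 1.89 ± 0.85, edgeR adjusted p = 0.339). Without exposed 2-2, its log2 fold change was 0.46. The ratio of ldlrb to ldlra was 3.27 in exposed 2-2 and between 0.304 and 1.07 in the other 5 libraries.

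Among the exposed libraries the members fell into an order. Exposed 2-2 was the highest and exposed 3-3 the lowest for 6 of 9 members (HMGCS1, both SQLE genes, FDFT1, srebf2 and ldlra), against 20.0% of all genes. This order was picked after the values were seen, so the share of all genes is no test of it. LSS had exposed 3-3 as its lowest too. TM7SF2 had the opposite order, with exposed 2-2 the lowest and exposed 3-3 the highest. Unlike the sums of the other marker lists, macrophage, epidermal and Leydig cell marker sums took the order of the 6 members. They were 5500.3, 3018 and 2474 CPM for macrophages and neutrophils, 14056, 11276 and 1535 CPM for epidermis and 2619, 1724 and 1533 CPM for Leydig cells. Marker by marker, that order held for 4 of 12 macrophage and neutrophil, 8 of 10 epidermal and 3 of 10 Leydig cell markers. The part of these markers in the order was not tested.

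The profile of ldlra over the 6 libraries was compared with others by the root mean square difference of log2 CPM, centred on the control mean, among 11357 named genes with at least 10 CPM. Nearest to ldlra were spg11 (0.122), CAMSAP2, SLC43A2, FDXR and SARM1 (0.14). FDXR encodes the reductase that feeds electrons to mitochondrial steroid enzymes. Each of these genes, like ldlra, had its lowest level in control 3-1. A near profile over 6 libraries does not show a link between genes.

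Another 17 genes of cholesterol synthesis also gave no call: 0 passed in edgeR, and DESeq2 called 0. At an unadjusted p under 0.05, 1 was lower (5.88%, against 6.79% of all genes) and 0 were higher (against 9.68%). Their median log2 fold change was -0.22, with 10 below 0 and 7 above. The lower one was IDI1, which isomerises the isoprene unit, at 219, 128 and 162 CPM in the control fish and 110, 69.9 and 129 CPM in exposed 2-2, 3-1 and 3-3 (log2 fold change -0.72 ± 0.31, edgeR unadjusted p = 0.0454, adjusted p = 0.294). Exposed 3-3 was within the control range. HSD17B7, a ketosterol reductase late in the pathway, had 26.3 ± 7.35 CPM in the control fish and 52.5 ± 31.4 CPM in exposed testes, with 87.8 CPM in exposed 3-1 (log2 fold change 1.00 ± 0.43, edgeR adjusted p = 0.304). Without exposed 3-1 its log2 fold change was the lowest of the leave-one-out fits, at 0.39. The POR gene ENSDARG00000059035, for the reductase that supplies electrons to cytochromes P450, had -0.34 ± 0.36. Without control 3-1 the median of the 17 genes was -0.01, with 2 lower and 1 higher. IDI1 was not among those 2 (edgeR unadjusted p = 0.0638 in that fit). Without exposed 3-3 there were 2 lower and 2 higher, and without control 1-2 or exposed 3-1 there were 0 lower.

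**Figure D3:**
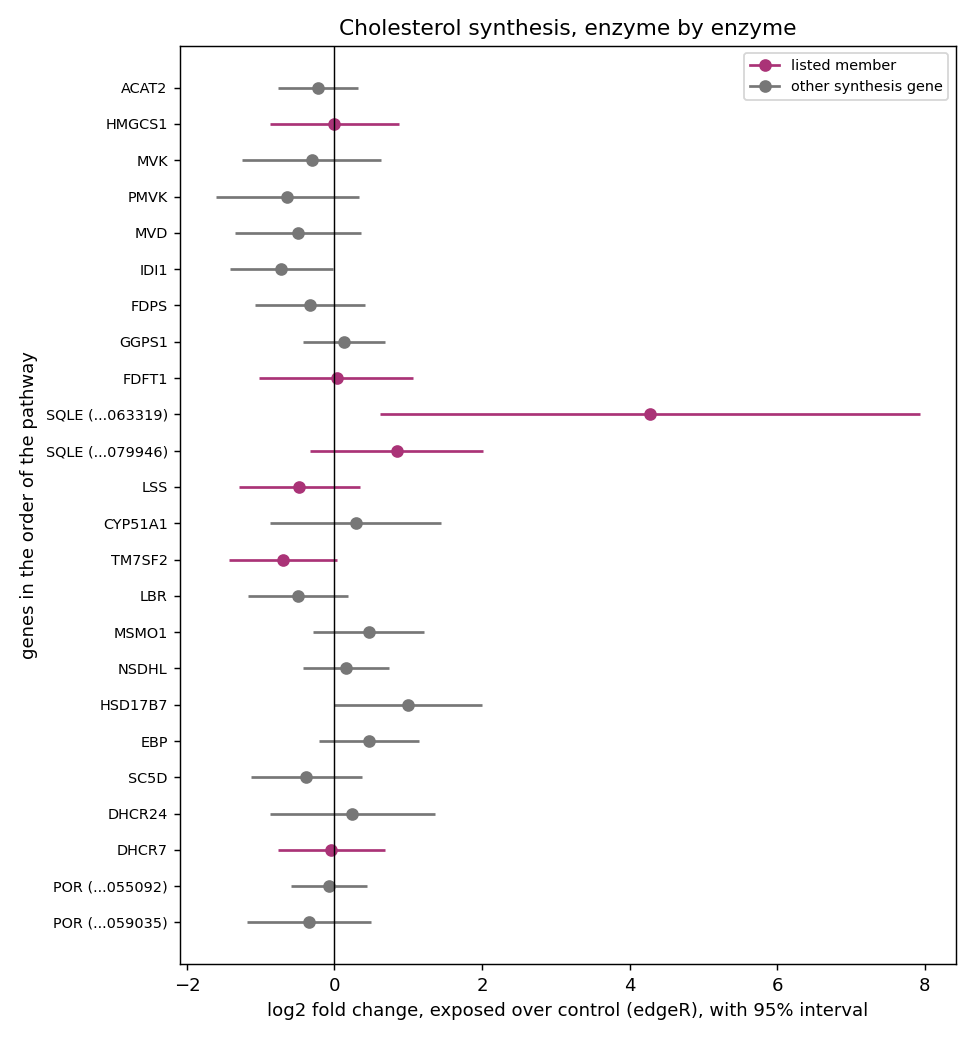
Log2 fold change of each cholesterol synthesis gene, exposed over control, from edgeR with its 95% interval (not adjusted for the number of genes), in the order of the pathway from top to bottom with the electron donor POR last; purple marks the listed genes and grey the other enzymes. Points lie on both sides of 0, and the SQLE gene ENSDARG00000063319 has the largest value, 4.28, and the widest interval.

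Of 12 genes of sterol sensing, 3 were higher at an unadjusted p under 0.05 (against 9.68% of all genes) and 0 lower, and 0 passed in edgeR or DESeq2. NR1H3, the oxysterol receptor LXR alpha, had 40.2, 38.1 and 29.4 CPM in the control fish and 70.1, 52.6 and 48.1 CPM in exposed testes. Every exposed library was above every control (log2 fold change 0.66 ± 0.24, edgeR unadjusted p = 0.0239, adjusted p = 0.237). MYLIP, a ubiquitin ligase that sends the LDL receptor to degradation and is an LXR target in mammals, has 2 copies. MYLIP ENSDARG00000055118 had 2.64 ± 0.366 CPM in the control fish and 5.97 ± 0.773 CPM in exposed testes without overlap (log2 fold change 1.18 ± 0.44, edgeR unadjusted p = 0.0285, adjusted p = 0.250). MYLIP ENSDARG00000008859 had a log2 fold change of 0.97 ± 0.36 (edgeR unadjusted p = 0.0286, adjusted p = 0.250), and exposed 3-3 overlapped control 3-1. The count of 3 was 0 without control 2-2 or exposed 2-2 and 1 without control 1-2. From the same list, MBTPS1, the protease that makes the first cut in SREBPs, had a log2 fold change of 0.26 ± 0.21. SYVN1, a ubiquitin ligase of the endoplasmic reticulum, had -0.29 ± 0.21, with 95% interval -0.78 to 0.20. Every exposed library was below every control for SYVN1.

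Of 25 other genes of uptake and intracellular transport, 8 were higher at an unadjusted p under 0.05 (32.0%, against 9.68% of all genes) and 0 were lower. In 8 of 25 genes every exposed library was above every control, against 12.8% of all genes. None passed in edgeR, DESeq2 called 3 higher (against 5.35% of all genes), and the median log2 fold change was 0.46. The count of 8 was 4 without exposed 3-1, 5 without control 1-2 and 5 without control 2-2. The scavenger receptor gene CD36 had 75, 20 and 28 counts in controls and 141, 639 and 885 counts in exposed 2-2, 3-1 and 3-3. The log2 fold change of 3.41 ± 0.87 had an adjusted p of 0.165 in edgeR and 0.0022 in DESeq2. OSBPL1A, an oxysterol-binding protein of endosomes, had 16.3, 12.2 and 12.4 CPM in the control fish and 26.7, 30.5 and 23.2 CPM after exposure (log2 fold change 0.97 ± 0.26, edgeR adjusted p = 0.171, DESeq2 adjusted p = 0.0394). Every exposed library was above every control for both.

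The lipoprotein receptor gene VLDLR had 5.50 ± 0.742 CPM in the control fish and 13.1 ± 4.78 CPM in exposed testes, without overlap (log2 fold change 1.26 ± 0.38, edgeR adjusted p = 0.189). The apolipoprotein E gene apoeb, whose product carries lipid between cells, had 376, 92.8 and 243 CPM in the control fish and 1021, 874 and 384 CPM in exposed testes. Exposed 3-3 was only just above control 1-2 (log2 fold change 1.68 ± 0.56, edgeR adjusted p = 0.224, DESeq2 adjusted p = 0.0224). LRP1 ENSDARG00000029146, a large endocytic receptor, had 87.5 ± 16.3 and 183 ± 96.1 CPM, with exposed 3-3 inside the control range. NPC2 ENSDARG00000090912, which hands cholesterol out of lysosomes, had 168 ± 30.5 and 189 ± 26.4 CPM, a difference smaller than the spread. Its copy ENSDARG00000096979, named after its values were seen, had 5.15 ± 3.85 and 16.2 ± 9.21 CPM, without overlap. The log2 fold change of that copy was 1.65 ± 0.62 (edgeR unadjusted p = 0.0273, adjusted p = 0.247). Macrophages use several of these genes. Markers of macrophages and neutrophils summed to 852 to 1322 CPM in the control fish and 2474 to 5500.3 CPM in exposed testes, with 11 of 12 markers above 0 in log2 fold change and 0 markers absent from all controls. Most of these sums came from cd74a (control and exposed means 583 and 1843 CPM) and cd74b (320.2 and 1255 CPM). By contrast, csf1ra had means of 20.9 and 31.3 CPM, and the marker below 0, cybb, had 43.2 and 35.3 CPM. The part of these markers in the uptake genes was not tested.

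**Figure D4:**
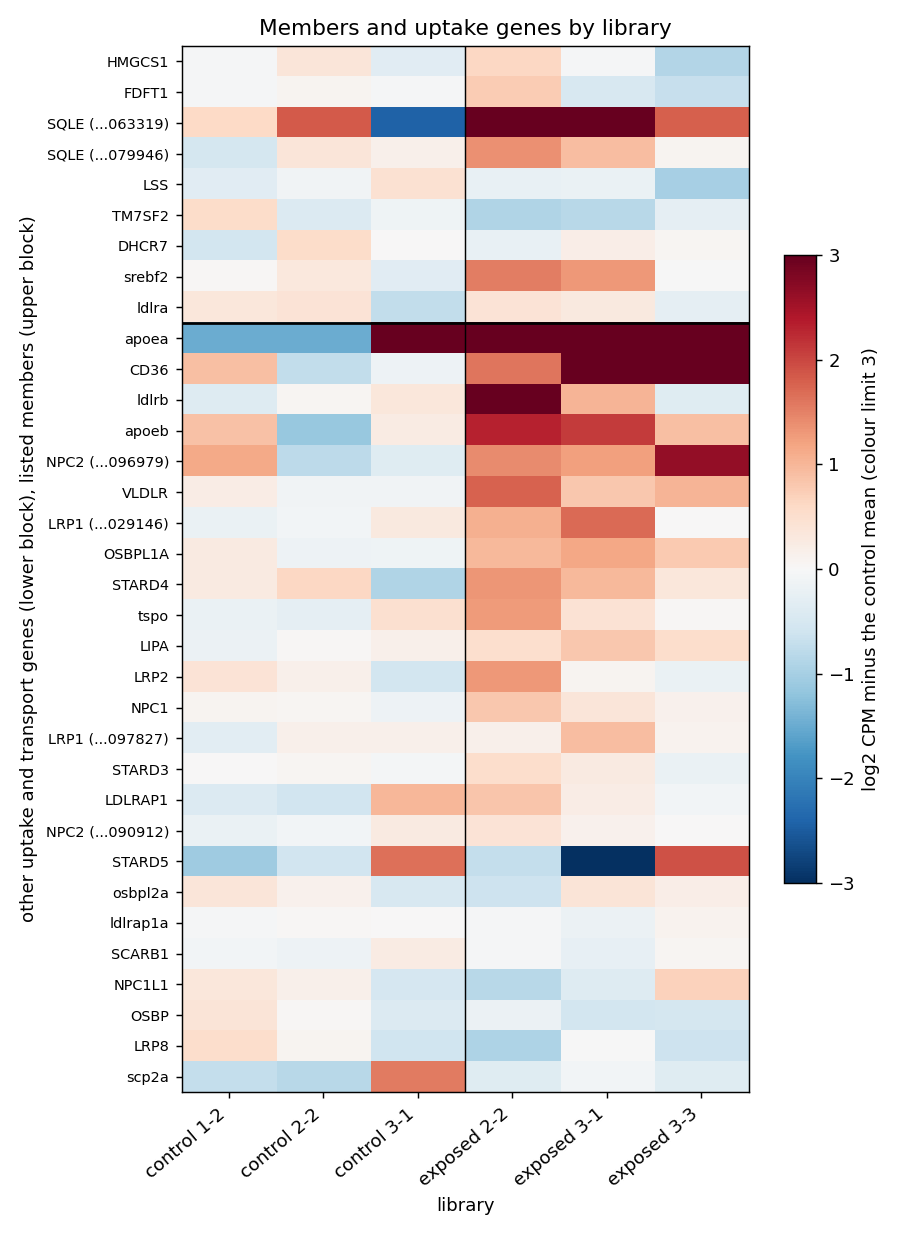
Log2 CPM of the 9 listed genes (upper block) and of 25 other uptake and transport genes (lower block, sorted by log2 fold change) in each library, minus the mean of the 3 controls; red is above and blue below it, and colours stop at 3 log2 units. Exposed 3-3 is paler than exposed 2-2 in srebf2 and both SQLE genes, while CD36 and OSBPL1A are red in every exposed library.

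Of 20 genes of efflux, esterification and oxysterol or bile acid formation, 3 were higher at an unadjusted p under 0.05 (against 9.68% of all genes) and 0 lower. None passed in edgeR, and DESeq2 called 1 higher, where it called 5.35% of all genes higher. The median was 0.20, -0.03 without control 2-2, 0.02 without exposed 3-3 and 0.54 without control 3-1. Without control 3-1, 5 were higher, but 1 of the 3, cyp46a1.1, was not among them (edgeR unadjusted p = 0.0746 in that fit). Over the 16 alternatives to the main fit, between 1 and 5 were higher and between 0 and 2 lower. The called gene was CYP7A1, the rate-limiting enzyme of bile acid synthesis in liver, with 12, 54 and 96 counts in controls and 1474, 4254 and 1370 counts in exposed 2-2, 3-1 and 3-3. In CPM the controls had 0.134, 0.688 and 1.35 and the exposed libraries 14.4, 45.2 and 12.0, without overlap. The log2 fold change of 5.05 ± 0.98 had an adjusted p of 0.150 in edgeR, 0.0509 with its bias-adjusted method and 1.13e-08 in DESeq2. Hepatocyte markers summed to 944, 199 and 18809 CPM in control 1-2, 2-2 and 3-1, and to 825, 6452 and 1661 CPM in exposed 2-2, 3-1 and 3-3. The part of liver transcripts in the CYP7A1 values was not tested. The oxysterol-forming genes ch25hl1.1 and cyp46a1.1 had log2 fold changes of 2.56 ± 0.89 and 2.45 ± 0.94 (edgeR adjusted p = 0.224 and 0.256), from control means of 0.718 and 0.677 CPM. Without exposed 2-2, which had 8.41 CPM against 0.946 and 1.78 in exposed 3-1 and 3-3, cyp46a1.1 had 1.01. The exporter genes had smaller values, with ABCA1 at 0.45 ± 0.29 and abcg2a at -0.02 ± 0.20, and the plasma enzyme gene LCAT had -0.09 ± 0.35.

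The last comparison set cholesterol supply beside its use for steroids. The list of 24 steroid synthesis genes is not of enzymes alone. It also holds the receptor genes lhcgr and mc2r, both NR5A1 genes and the hormone gene insl3. Of the 24 genes, 17 were below 0 in log2 fold change and 7 above, with a median of -0.49. At an unadjusted p under 0.05, 5 were lower (20.8%, against 6.79% of all genes) and 1 was higher (4.17%, against 9.68%). In edgeR 0 passed. The 5 were STAR, cyp17a2, cyp11c1 and both NR5A1 genes, the last named after their values were seen. The count of 5 was 1 without control 1-2, 0 without control 2-2 and 7 without control 3-1. It was 3 without exposed 2-2, 2 without exposed 3-1 and 0 without exposed 3-3. The genes counted were not always among those 5. Without control 1-2 the gene was CYP17A1, and without exposed 2-2 insl3 was among the 3. STAR had 1276, 1344 and 818 CPM in control 1-2, 2-2 and 3-1 and 909, 654 and 547 CPM in exposed 2-2, 3-1 and 3-3. Only exposed 2-2 reached the control range (log2 fold change -0.70 ± 0.29, edgeR adjusted p = 0.281). The CYP11A1 gene ENSDARG00000092696 had 119 ± 34.3 and 78.9 ± 14.1 CPM, and its copy ENSDARG00000002347 had 31.8 ± 10.1 and 23.7 ± 7.19 CPM.

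Several other genes of the steroid synthesis list had lower means too, without a call. CYP17A1 had 301, 1228 and 469 CPM in the control fish and 521, 288 and 263 CPM in exposed testes, and hsd3b1 had 162, 408 and 147 against 144, 201 and 99.2 CPM. Both were highest in control 2-2, and the groups overlapped. Without control 2-2 the log2 fold change was -0.12 for CYP17A1 and -0.08 for hsd3b1, so their lower means rested largely on that library. cyp17a2 had 154, 151 and 113 CPM in the control fish and 92.4, 109 and 83.8 CPM in exposed testes, without overlap (log2 fold change -0.55 ± 0.22, edgeR adjusted p = 0.274). cyp11c1, on the way to 11-ketotestosterone, had -0.83 ± 0.34 (edgeR adjusted p = 0.279), and the Leydig cell hormone gene insl3 had -0.89 ± 0.53. The gene on the higher side was SRD5A2 ENSDARG00000043587, a steroid 5-alpha reductase, at 2.67, 3.72 and 5.04 CPM in the control fish and 18.9, 19.2 and 12.3 CPM in exposed testes. Its groups did not overlap, and DESeq2 called it (log2 fold change 2.14 ± 0.39, edgeR adjusted p = 0.139, DESeq2 adjusted p = 6.55e-05). Leydig cell markers, whose 10 genes are all in this list and so are no separate measure, summed to 2236 to 4551 CPM in the control fish and 1533 to 2619 CPM in exposed testes.

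Summed over the 7 synthesis genes among the members, levels were 433, 300.3 and 309 CPM in the control fish and 261, 236 and 264 CPM in exposed 2-2, 3-1 and 3-3. Every exposed sum was below every control sum, though this was not tested, and TM7SF2 alone had means of 246 and 152 CPM. Without TM7SF2, which was set aside after its values were seen, the sums were 84.8, 123 and 95.3 CPM in the control fish and 135, 103 and 67.9 CPM in exposed testes, and the groups overlapped. A set of 6 steroid synthesis genes (STAR, both CYP11A1 genes, hsd3b1, CYP17A1 and cyp11c1) summed to 2217, 3613 and 1761 CPM in the control fish and 1878, 1495 and 1117 CPM in exposed testes. The ratio of the 7 synthesis genes to these was 0.195, 0.0831 and 0.176 in controls and 0.139, 0.158 and 0.237 in exposed testes, overlapping. With the whole list of 24 genes below the line, insl3 among them, it was 0.0929 ± 0.0339 and 0.106 ± 0.0298, a difference smaller than the spread. Without TM7SF2 the ratio to the 6 genes was 0.0383, 0.0341 and 0.0541 in controls and 0.072, 0.0687 and 0.0608 in exposed testes. That ratio did not overlap between the groups, but it was chosen with the values known and was not tested.

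**Figure D5:**
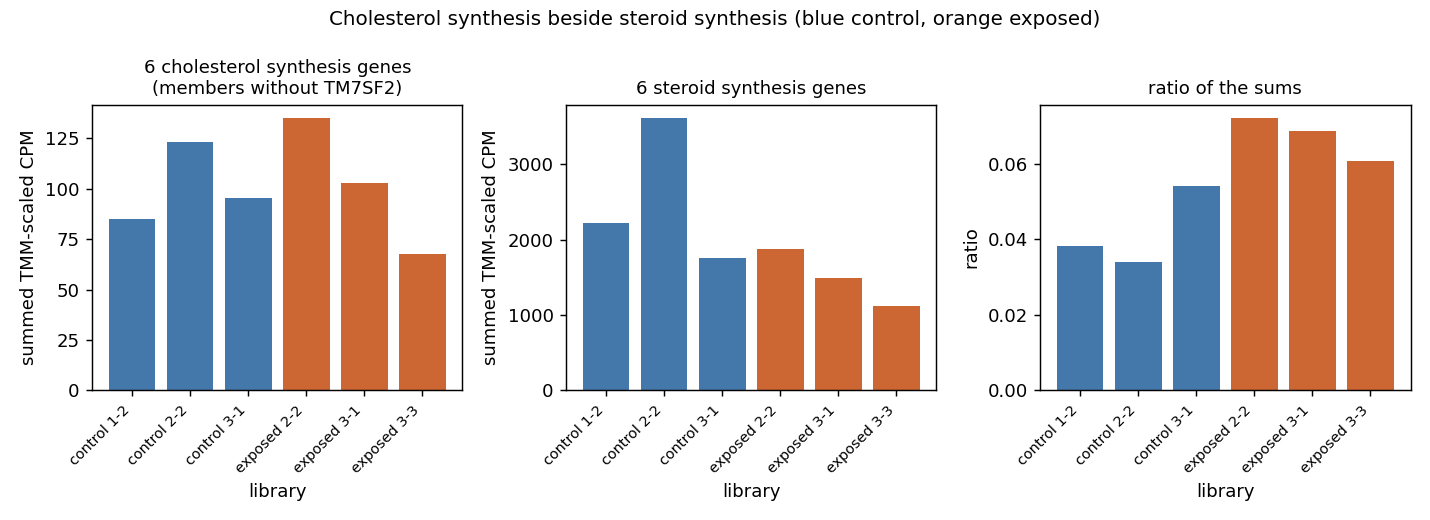
Summed TMM-scaled CPM of 6 cholesterol synthesis genes (the listed enzymes without TM7SF2), of 6 steroid synthesis genes, and the ratio of these sums, as bars per library (blue control, orange exposed). The first sum overlaps between the groups (84.8 to 123 in controls, 67.9 to 135 in exposed testes), the second ranges from 1761 to 3613 in controls and from 1117 to 1878 in exposed testes, and the ratio is highest in exposed 2-2 at 0.072.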

How the data were processed

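The deposited data are raw counts in 1 table, where rows are Ensembl genes and columns are animals. Per the submitters' processing notes reads were aligned with STAR to GRCz11. The sources used here do not give the counting tool, annotation release, strand setting or treatment of mates. Columns were matched to samples by description and groups taken from titles, and 0 columns were left out.

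Gene names came from a reference table pairing 29201 of 32520 identifiers with a symbol, matched without regard to case. The filter on low values was filterByExpr, which left 26108 genes. After TMM scaling, edgeR 4.0.16 gave two-sided tests (robust glmQLFit, then glmQLFTest, with group as the only term), with Benjamini-Hochberg adjustment over all genes at 0.05. Each SE was derived from the log2 fold change and its F statistic (the size of the first over the root of the second), and 95% intervals use its degrees of freedom. With 3 against 3 animals an exact permutation test cannot go below p = 0.1, so single values were not tested that way.

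The members and lists were chosen with earlier results of these data known. Some genes of the lists are not reported here. Named genes are all members and their paralogs and, from each other list, the 3 with the highest mean CPM and the 3 with the smallest p, plus 5 steroid genes; others are said to be chosen after their values were seen. For profiles a prior count of 2 was added before taking log2 CPM. Alternatives were DESeq2 1.42.0, limma 3.58.1 (voom), other scalings, filters and fits, the replicate number as a block, and each library left out. The procedure was tested on simulated counts with 200 genes changed, 50 at each of several folds. edgeR recovered 1 of 50 genes changed 2-fold and 13 of 50 changed 4-fold, with 7 false calls over all folds. DESeq2 recovered 6 and 33 of 50, with 116 false calls. A 2-fold change was therefore mostly missed, and calls by DESeq2 alone need caution. R 4.3.3 and Python 3.11.15 were used.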

Additional observations from a re-analysis of the deposited data

How the results depend on the processing

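No member passed in edgeR under any of the 3 other scalings, the 2 other filters, the fit that was not robust, the bias-adjusted method, an adjusted p of 0.1 or any library left out, nor in limma voom, and DESeq2 called 1. Over all genes, where edgeR called 0, it called 1 under each of the other scalings, 12 without a filter, 70 with the bias-adjusted method and 17 at an adjusted p of 0.1, and DESeq2 called 1756. With libraries left out it called between 0 and 396, the latter without exposed 3-3. Members higher at an unadjusted p numbered 0 in limma voom, 1 among the 7 matched by their own name (an alternative added after seeing the data), 1 with the filter at 1 CPM, and between 0 and 2 with a library left out, 0 without control 1-2, exposed 2-2 or exposed 3-1 and 1 without control 3-1. Members lower numbered 1 without a filter and 1 with the bias-adjusted method (TM7SF2), and between 0 and 1 with a library left out. The median of the members lay between -0.09 and 0.28. HMGCS1, FDFT1, DHCR7 and ldlra changed sign under some alternatives, and no other member did. The SQLE gene ENSDARG00000063319 was removed by the filter at 1 CPM in 3 libraries.

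Between control and exposed libraries of the same replicate number, deviations from the group means correlated at -0.01, 0.02 and -0.03 across genes. Deviations within so small a group are tied to each other, and exposed 3-1 was not compared with exposed 3-3. These correlations therefore cannot show whether the number marks a shared unit. With the replicate block edgeR called 5 genes and 0 members, and the median of the members was 0.06. At these depths only the SQLE gene ENSDARG00000063319 had member values near the floor of 3 counts.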
